A study of Mus musculus with 7 samples.

Results

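Core genes of autophagy and the lysosome, 36 in all, were described in fetal muscle fibers labelled WT or dyW, a mutant of the laminin-α2 gene. They were taken as the rows of the deposited table of normalized counts whose gene symbol was on a list of autophagy and lysosome genes, and all 36 were found among the 31531 genes of the table. RNA was measured in fibers of the epaxial (back) muscles of fetuses at embryonic day 17.5. There were 4 WT libraries and 3 libraries labelled dyW, 1 per fetus, where dyW stands for fetuses homozygous for the dyW allele (dyW/dyW). Both genotypes came from crosses of heterozygous C57BL/6 mice and had no other treatment. The dyW allele disrupts *Lama2*, the gene of the laminin-α2 chain of the muscle basement membrane, in the whole animal and serves as a mouse model of LAMA2-congenital muscular dystrophy. Fibers were freed from muscle by enzymatic digestion and caught on a strainer, and no sort for muscle cells is described, so lysates can hold other cells of the tissue.

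In autophagy, a double membrane closes around cytoplasm or organelles and fuses with the lysosome, where hydrolases degrade the content. The ULK1 kinase complex starts the process, a lipid kinase complex around Beclin 1 marks the site, and a pair of ubiquitin-like systems attach ATG8 proteins (LC3 and GABARAP) to the growing membrane, where cargo receptors bind them. In skeletal muscle, autophagy removes damaged mitochondria and protein aggregates, the mTOR kinase restrains it when nutrients are plentiful, and the transcription factor TFEB drives many autophagy and lysosome genes through a DNA element that contains CACGTG.

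The libraries differed in depth and make-up. Between 470804 and 2220813 reads were counted on genes in the WT libraries, against 3663905 to 18297106 in the libraries labelled dyW. In normalized counts, which are reads divided by 1 size factor per library, a single read was worth 2.05 to 5.33 in WT and 0.0974 to 0.488 in the others. *Lama2* was at 90.6, 111, 105 and 107 normalized counts in WT1 to WT4 and at 4.29 and 6.07 in dyW1 and dyW2, but at 139.7 in the library labelled dyW3, against its label. The summed level of 12 myofiber markers ranged from 2772 to 68202 in WT and was 65.5 in dyW1, 7505 in dyW2 and 4389 in the library labelled dyW3, and every marker was read in both groups. Sums of 8 fibroblast markers were 4180 to 14966 in WT and 21951 to 33379 in the libraries labelled dyW, without overlap. Sums of the macrophage (14 markers; 176 to 833 in WT, 153 to 1273 in dyW), osteoclast (6 in the table; 101 to 390 and 63.0 to 841, with *Ocstamp* at 0 in every library labelled dyW) and endothelial markers (6; 351 to 620 and 574 to 1336) overlapped between the groups, as did those of erythroid cells (7 in the table; 90.6 to 291249 and 14.8 to 171958) and cartilage (6; 167 to 436943 and 19.7 to 522). The part of these shifts in the results below was not tested, and in RNA from whole lysates, fewer cells of a type and less RNA per cell cannot be told apart. Odorant and vomeronasal receptor genes, known mainly from sensory neurons, were read in 1040 to 1300 of 1330 cases in the WT libraries, in 208 and 128 in dyW1 and dyW2, and in 755 in the library labelled dyW3.

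Of the 36 autophagy and lysosome genes, 1 passed a test for a difference between the libraries labelled WT and dyW. Another 6 were above WT in every library labelled dyW. No member was called lower or higher at the thresholds of the study, a log2 fold change beyond 1.5 in either direction with an adjusted *P*-value below 0.01 (limma on log2(normalized count + 1), adjusted over the 25791 genes with a mean of at least 5, which all 36 members passed). Among all genes tested, 18.7% were called lower and 0.0659% higher by this rule. At an adjusted *P*-value under 0.05, 1 member was lower, *Atg14*, and none was higher, where all genes tested gave 29.6% lower and 1% higher. The paper, which used DESeq2, listed *Atg3* as up-regulated at its level of 0.05, where limma gave an adjusted *P*-value of 0.0997. At an unadjusted *P*-value under 0.05, *Atg13* and *Atg14* were lower and *Ctsl*, *Bnip3l*, *Atg5* and *Atg3* were higher, where all genes tested gave 41.5% lower and 2.81% higher. The median log2 fold change of the members was 0.34, with 19 above 0 and 17 below, while that of all genes tested was −1.99 and 20.4% of them were above 0. The median of the members was 0.06 without WT1, −0.04 without WT4 and −0.08 without dyW1, so its sign rests on single libraries.

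The members were also set beside genes of like level. Of the 36 members, 26 had a mean of 50 to 1000 normalized counts, and their median was 0.51, beside 0.21 for the 6005 genes of that range, of which 56.2% were above 0. The 10 members with a mean under 50 had a median of −1.14, beside −2.58 for 19680 genes. In 6 members, *Atg3*, *Atg5*, *Sqstm1*, *Nbr1*, *Bnip3l* and *Ctsl*, every library labelled dyW was above every WT library, a pattern found in 3.28% of all genes tested. All 6 were in the range of 50 to 1000, where they made up 23.1% of the members and the background was 12.4%. This range is set on the mean over all 7 libraries, and *Atg3*, *Atg5* and *Becn1*, with WT means of 34.5, 24.9 and 41.3, are in it through their levels in dyW, so nothing is read from the share or from the median of the range. By the rule at 0.05, 0 of these 26 members passed, where 5% of the genes of that range were lower and 4.01% higher. The reverse held for *Atg14* and *Mtor*, where the background was 31.5% of all genes tested and 6.74% in the range of 50 to 1000. In 6 members with reads in every WT library, *Atg9a*, *Atg13*, *Atg14*, *Atg16l1*, *Pik3c3* and *Tfeb*, at least 1 library labelled dyW held no read. This was 16.7% of the members, against 50% of all genes tested, and 1 of the 26 members of the middle range, where the background was 10.4%.

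**Figure D1:**
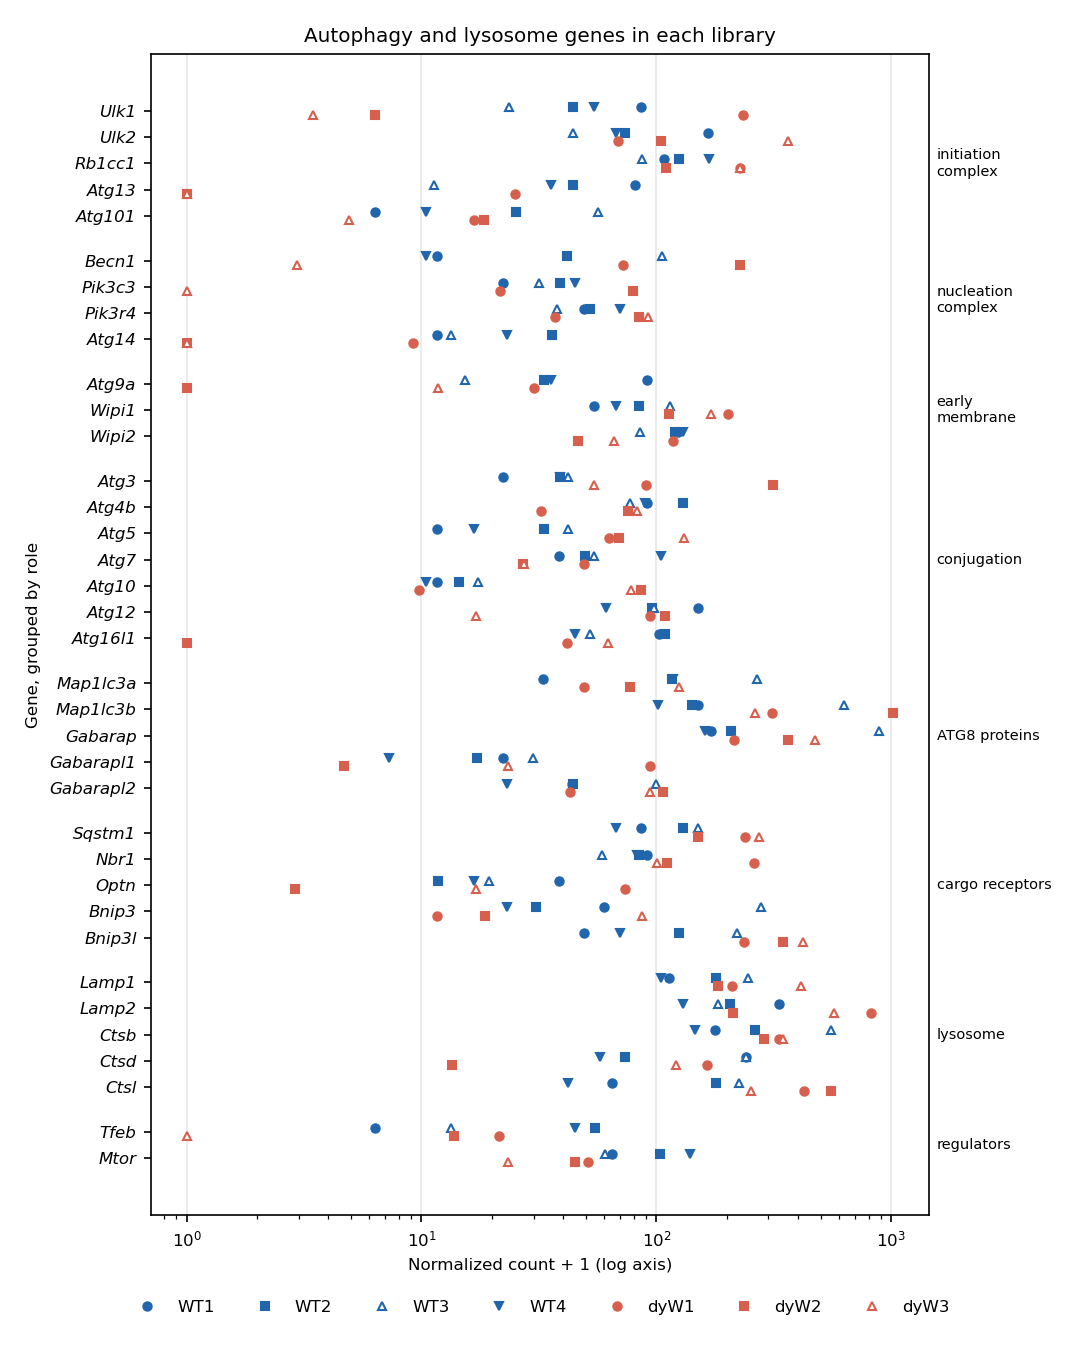
Normalized count + 1 (x axis, log scale) of each of the 36 genes (y axis, grouped by role) in the 4 WT libraries (blue) and the 3 libraries labelled dyW (red), with 1 marker shape per replicate number and replicate 3 drawn as open triangles; the red triangle is the library labelled dyW3. Red points lie to the right of all blue points for *Atg3*, *Atg5*, *Sqstm1*, *Nbr1*, *Bnip3l* and *Ctsl*, and points at 1 are counts of 0.

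**Figure D2:**
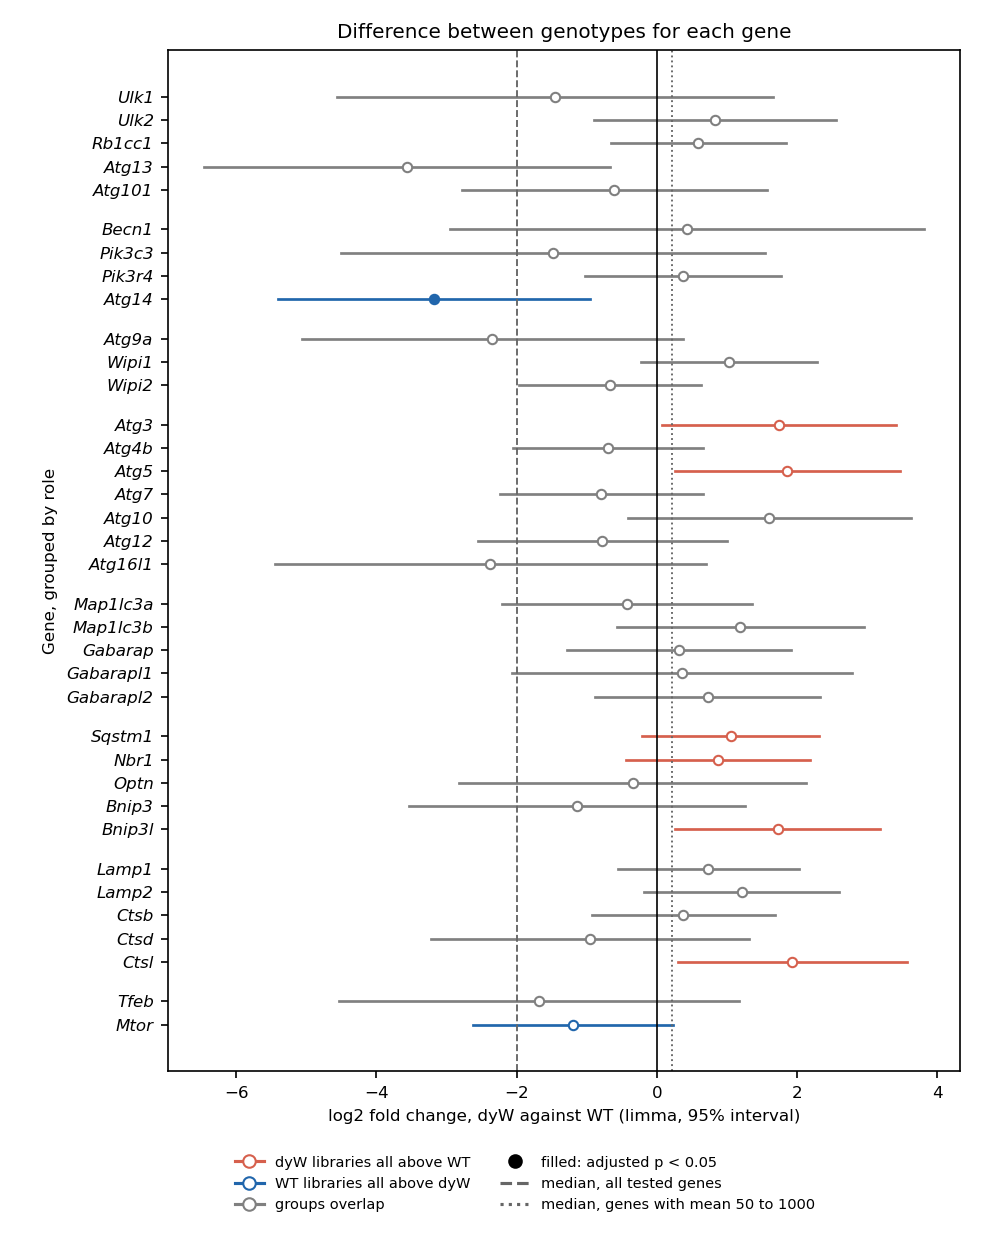
Log2 fold change of dyW against WT (x axis) with its 95% interval from limma for each gene (y axis, grouped by role); colour shows whether the libraries of the groups overlap, a filled point an adjusted *P*-value under 0.05, and the vertical lines the medians of all genes tested (−1.99) and of genes with a mean of 50 to 1000 (0.21). Only *Atg14* is filled, and most points lie to the right of the median of all genes.

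To show the sequence context of the genes that stood above WT, RefSeq promoter windows (250 bases before to 50 after the transcription start, GRCm38.p6) were searched for the TFEB element on both strands. Of the 36 members, 28 had a window, and *Atg12*, *Atg16l1*, *Becn1*, *Bnip3l*, *Ctsb*, *Map1lc3a*, *Pik3c3* and *Rb1cc1* had none. The core CACGTG was found in 8 of 28 members (28.6%) and in 8.09% of 27025 genes. In 7 of the 8 it lay upstream of the start, and in *Atg14* it lay across the start, with 1 base before it and 5 from it on. The longer TCACGTGA, which contains the core, was in 2 members, *Atg3* and *Ctsd* (7.14%, against 1.125% of genes), and the whole CLEAR (TFEB) element was in 0 members and 0.37% of genes. These motifs, all palindromes, read the same on both strands. Of the 6 members above WT, 5 had a window and 3 of these held the core (*Atg3*, *Atg5* and *Ctsl*), as did 5 of the 23 other members. Of these others, *Lamp1* had a log2 fold change above 0 (0.73). *Atg7*, *Bnip3*, *Ctsd* and *Atg14* had ones below 0 (−0.79, −1.14, −0.96 and −3.18). A link between the core and the direction was not tested. The 250 bases upstream of the start are shown for *Atg3*, *Atg5* and *Ctsl*, and for *Lamp1*, which holds 4 copies. They run 5′ to 3′ on the strand of the gene, with each CACGTG in capitals. They lie at chr16:45158579-45158828 (plus strand) for *Atg3*, chr10:44268089-44268338 (plus) for *Atg5*, chr13:64370521-64370770 (minus) for *Ctsl* and chr8:13158911-13159160 (plus) for *Lamp1*.
Atg3: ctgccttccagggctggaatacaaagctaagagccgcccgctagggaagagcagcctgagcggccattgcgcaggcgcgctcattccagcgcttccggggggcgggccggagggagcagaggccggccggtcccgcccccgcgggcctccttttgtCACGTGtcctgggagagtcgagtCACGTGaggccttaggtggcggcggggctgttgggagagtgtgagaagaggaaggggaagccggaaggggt
Atg5: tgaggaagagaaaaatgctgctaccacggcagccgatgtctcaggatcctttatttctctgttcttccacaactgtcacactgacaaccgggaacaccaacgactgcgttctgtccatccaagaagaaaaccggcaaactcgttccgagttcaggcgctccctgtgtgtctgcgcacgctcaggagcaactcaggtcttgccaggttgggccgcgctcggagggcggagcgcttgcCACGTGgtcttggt
Ctsl: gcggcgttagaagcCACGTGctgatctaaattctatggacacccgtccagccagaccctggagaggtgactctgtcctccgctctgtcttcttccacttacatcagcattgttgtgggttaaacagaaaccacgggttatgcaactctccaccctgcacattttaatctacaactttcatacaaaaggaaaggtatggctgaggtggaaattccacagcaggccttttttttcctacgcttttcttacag
Lamp1: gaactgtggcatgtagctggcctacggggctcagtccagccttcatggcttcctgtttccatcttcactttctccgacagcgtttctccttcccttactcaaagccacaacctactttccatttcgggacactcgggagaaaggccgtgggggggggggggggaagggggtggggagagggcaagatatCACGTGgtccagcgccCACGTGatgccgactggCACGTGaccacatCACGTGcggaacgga
The first base of the core is 94 and 71 bases before the start in *Atg3*, 14 in *Atg5*, 236 in *Ctsl* and 61, 45, 28 and 15 in *Lamp1*. A match of letters is a description of these windows and not a measured binding site.

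Genes of the initiation complex, which receives nutrient signals, showed no common direction. *Ulk1*, the kinase that starts autophagosome formation, was at 85.3, 43.1, 22.6 and 53.5 normalized counts in WT1 to WT4 and at 232, 5.31 and 2.44 in dyW1, dyW2 and the library labelled dyW3. Thus dyW1 was above every WT library and the other two were below every WT library (log2 fold change −1.45, SE 1.37, adjusted *P*-value 0.444). Its paralog *Ulk2* was at 165, 72.8, 43.1 and 66.1 in WT and 67.9, 104 and 363 in dyW, with overlap (0.83, SE 0.76, adjusted *P*-value 0.432). *Atg13*, the adaptor that links the kinase to the complex, was at 80.0, 43.1, 10.3 and 34.6 in WT and at 24.1, 0 and 0 in dyW (−3.56, SE 1.27, adjusted *P*-value 0.0626); it is named for its unadjusted *P*-value of 0.0213, after its values were seen. Its dyW1 value lies within the WT range, and a count of 0 allows up to 0.379 normalized counts (3 reads) in dyW2 and 1.47 in the library labelled dyW3, a limit that covers counting error only. *Atg101*, which stabilizes ATG13 and had one of the lowest levels, was at 5.33, 24.3, 55.4 and 9.44 in WT, the lowest of these being a single read, and at 15.8, 17.5 and 3.91 in dyW. The scaffold *Rb1cc1* (FIP200) overlapped between the groups, with means of 121 ± 34.3 (SD, n = 4) and 186 ± 66.9 (SD, n = 3).

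In the nucleation complex, the lipid kinase that marks the site of the new membrane, *Atg14* had the lowest adjusted *P*-value of the 36 members. *Atg14* (chr14:47778235-47808106, minus strand, GRCm39), the subunit that directs the kinase to autophagosomes, was at 10.7, 35.1, 12.3 and 22.0 normalized counts in WT and 8.19, 0 and 0 in dyW. All WT libraries were above all libraries labelled dyW, although WT1 and dyW1 were close. The log2 fold change was −3.18 (SE 0.98, adjusted *P*-value 0.0366 by limma, exact two-sided permutation *P*-value 0.0571, the smallest that 4 against 3 libraries allow). The WT values rest on 2, 13, 6 and 7 reads and the dyW values on 84, 0 and 0, and with 28 reads in 4 WT libraries the gene was at 0.828 of the level expected for a receptor gene of its exon length. It shares exon bases with *Gm49004* on the opposite strand, and whether counting used strand is not given in the sources used here. The fold depends on the settings, at −5.36 with a pseudocount of 0.1 (adjusted *P*-value 0.0492), −4.71 by voom (0.0612), −2.94 with TMM (0.0615), −2.50 with equal totals (0.176), −1.23 with a pseudocount of 10 (0.0709) and −0.33 with quantile normalization (0.916). The call was lost without any one of the 4 WT libraries, without dyW2 and without the library labelled dyW3 (log2 fold changes −3.41 to −2.64, adjusted *P*-values 0.0580 to 0.119). It was also lost with a block for replicate number (−3.08, 0.145) and was kept without dyW1 (−4.24, 0.0103). The other subunits did not pass the test. *Becn1*, Beclin 1, spread from 9.44 to 105 in WT and from 1.95 to 226 in dyW, the catalytic *Pik3c3* had means of 33.5 ± 9.75 in WT (SD, n = 4) and 32.9 ± 40.5 in dyW (SD, n = 3) with no read in the library labelled dyW3, and the regulatory *Pik3r4* was at 51.3 ± 13.4 and 70.2 ± 29.9.

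The 3 genes of membrane supply and the early membrane did not pass the test either. *Atg9a*, the membrane protein of the vesicles that seed autophagosomes, was at 14.4 to 90.6 in WT and 0 to 29.0 in dyW (log2 fold change −2.35, SE 1.20). *Wipi1* and *Wipi2*, which bind the lipid made by the nucleation complex, differed in sign, at 1.03 (SE 0.56) and −0.67 (SE 0.57). A test of the difference between them was not run.

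Among the 7 conjugation genes, *Atg3* and *Atg5* were above WT in every library labelled dyW, a pattern of 3.28% of all genes tested, and *Atg7* was not. *Atg3* (chr16:44978748-45008901, plus strand), the enzyme that passes ATG8 proteins to membrane lipid, was at 21.3, 37.8, 41.0 and 37.8 normalized counts in WT and 89.7, 313 and 53.2 in dyW. The groups did not overlap, with the library labelled dyW3 near the WT libraries and dyW2 far above them (log2 fold change 1.75, SE 0.74, adjusted *P*-value 0.0997; 1.03 and 0.280 without dyW2, 2.29 and 0.0309 without the library labelled dyW3). *Atg5* (chr10:44142076-44240308, plus strand), which joins ATG12 to form the ligase for that step, was at 10.7, 32.4, 41.0 and 15.7 in WT and 61.9, 68.2 and 130.4 in dyW. The groups did not overlap, and the highest *Atg5* value was in the library labelled dyW3 (1.86, SE 0.71, adjusted *P*-value 0.0740). *Atg7*, the activating enzyme of both conjugation systems, was at 37.3, 48.5, 53.3 and 104 in WT and 48.1, 25.9 and 26.4 in dyW. Its groups overlapped through dyW1 (−0.79, SE 0.64, 95% interval −2.24 to 0.66, adjusted *P*-value 0.370). *Atg10*, the enzyme that attaches ATG12, ranged from 9.44 to 16.4 in WT and was at 8.77, 84.6 and 76.7 in dyW, so that dyW1 alone was below the WT libraries. The protease *Atg4b* (−0.70, SE 0.60), the modifier *Atg12* (−0.78, SE 0.78) and the ligase scaffold *Atg16l1* (−2.38, SE 1.35, no read in dyW2) overlapped between the groups. In WT, *Atg3* and *Atg5* rested on 50 and 39 reads, 0.963 and 1.39 times the level expected for receptor genes of the same exon length.

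The 5 genes of ATG8 proteins, which coat the membrane and bind cargo receptors, overlapped between the groups, and none passed the test. Per kilobase of annotated exon, *Gabarap* had the highest mean level of the 36 members in both groups, at 158 normalized counts per kb in WT and 155 in dyW, and *Map1lc3a* was second in WT at 101 and at 62.8 in dyW. *Gabarap* was at 171, 208, 888 and 160.5 normalized counts in WT and 213, 364 and 472 in dyW, so WT3 was the highest of the 7 libraries and the other WT libraries were the lowest (log2 fold change 0.32, SE 0.70, 95% interval −1.28 to 1.91). *Map1lc3b*, the LC3 form most often used to follow autophagy, was at 149, 140.2, 626 and 101 in WT and 309.9, 1020.5 and 263 in dyW. Again WT3 overlapped with the libraries labelled dyW while the other 3 WT libraries were below all of them (1.19, SE 0.78, adjusted *P*-value 0.270; 0.58 without dyW2). *Map1lc3a*, a second LC3 gene, was at 32.0, 116, 267 and 116 in WT and 48.2, 75.9 and 124 in dyW (−0.43, SE 0.79, adjusted *P*-value 0.704). WT3, which also had the highest summed level of myofiber markers at 68202, was highest for *Map1lc3a* too. *Gabarapl1* was at 21.3, 16.2, 28.7 and 6.29 in WT and at 93.1, 3.67 and 22.5 in dyW, where dyW1 was highest and dyW2 lowest. *Gabarapl2* was at 42.6, 43.1, 98.5 and 22.0 in WT and 41.8, 106 and 93.3 in dyW (0.72, SE 0.71).

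Cargo receptors tie ubiquitinated proteins or mitochondria to the ATG8 coat, and 3 of the 5 were above WT in every library labelled dyW, a pattern of 3.28% of all genes tested and 12.4% of those with a mean of 50 to 1000. *Bnip3l* (NIX, chr14:67222678-67246356, minus strand), a receptor on the outer mitochondrial membrane, was at 48.0, 124, 219 and 69.2 normalized counts in WT and 236, 345 and 421 in dyW. The lowest library labelled dyW was only slightly above WT3 (log2 fold change 1.72, SE 0.65, adjusted *P*-value 0.0713). Its paralog *Bnip3* was at 58.6, 29.7, 277 and 22.0 in WT and 10.6, 17.7 and 85.5 in dyW, with overlap (−1.14, SE 1.06, adjusted *P*-value 0.439). *Sqstm1* (p62, chr11:50089572-50107684, minus strand), which binds ubiquitinated cargo, was at 85.3, 129, 149.7 and 66.1 in WT and at 236, 150.1 and 273 in dyW. The value in dyW2 was nearly that of WT3, and the difference did not pass the test (1.05, SE 0.55, adjusted *P*-value 0.177). *Nbr1* (chr11:101442962-101472781, plus strand), a relative of p62 with the same kind of cargo, was at 90.6, 83.6, 57.4 and 81.8 in WT and 260.4, 109.9 and 100.1 in dyW. Only dyW1 stood far above WT (0.87, SE 0.58, adjusted *P*-value 0.280; 0.44 without dyW1). *Optn*, optineurin, had the lowest mean level per kb of exon in WT, 1.82 normalized counts, and overlapped between the groups.

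Lysosomal genes were among the most abundant members. *Ctsl* (chr13:64507151-64518704, minus strand), the cysteine protease cathepsin L, was at 64.0, 178, 224 and 40.9 normalized counts in WT and 426, 552 and 251 in dyW. Every library labelled dyW was above WT, and the log2 fold change was the largest above 0 among the members (1.93, SE 0.72, 95% interval 0.30 to 3.57, adjusted *P*-value 0.0699). *Ctsl* shares exon bases with *Gm47123* on the opposite strand and *Gm49230* on the same strand, so its reads cannot be told apart from theirs without the counting settings. *Ctsb*, cathepsin B, was at 176, 262, 552 and 145 in WT and 331, 286 and 345 in dyW, within the WT range (0.38, SE 0.57). *Ctsd*, the aspartic protease cathepsin D, was at 239.9, 72.8, 240.0 and 56.6 in WT and 163, 12.5 and 120.1 in dyW, where dyW2 was the lowest of the 7 libraries (−0.96, 95% interval −3.23 to 1.31). *Lamp1* and *Lamp2* encode the main glycoproteins of the lysosomal membrane, and *Lamp2* is also needed for fusion with autophagosomes. *Lamp1* was at 112, 178, 244 and 104 in WT and 208, 182 and 409.7 in dyW (0.73, SE 0.57). *Lamp2* was at 331, 205, 183 and 129 in WT and 821, 212 and 571 in dyW (1.21, SE 0.62, adjusted *P*-value 0.164). For both, dyW2 lay within the WT range and the library labelled dyW3 above it.

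The 2 regulators had log2 fold changes below 0. *Mtor* (chr4:148533015-148642141, plus strand), the kinase that restrains autophagy, was at 64.0, 102, 59.5 and 138 normalized counts in WT and 50.3, 44.0 and 22.5 in dyW. All WT libraries were above all libraries labelled dyW, and the difference did not pass the test (−1.20, SE 0.63, adjusted *P*-value 0.174; −0.07 when each library was given an equal total, 0.15 by voom). *Tfeb* ranged from 5.33 to 53.9 in WT and was at 11.1 ± 10.3 in dyW (SD, n = 3), with no read in the library labelled dyW3 (−1.68, SE 1.26; 0.10 with quantile normalization).

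The level of the members in WT was set beside that of the receptor genes. Summed over the 4 WT libraries, the members held 0.325 (*Optn*) to 38.6 (*Gabarap*) times the reads expected from the median receptor gene of the same exon length, with a median of 1.82. Of the 36 members, 20 were under 2-fold and 7 were at least 5-fold. *Atg13*, *Atg14* and *Atg9a* were at 0.664, 0.828 and 0.947, and *Sqstm1*, *Ctsl* and *Bnip3l* were at 2.83, 4.40 and 4.91. Members with a log2 fold change above 0 also lay near or under this level (*Atg10* 0.619, *Atg3* 0.963 and *Atg5* 1.39), and members with one below 0 also lay well above it (*Bnip3* 5.57 and *Ctsd* 10.98). Annotated exons are the union over all transcripts, which is longer than a single mRNA, so these folds are low for genes with many annotated forms. The median receptor gene had 0.640 to 2.52 reads per kb in the WT libraries, 0 in dyW1 and dyW2 and 1.38 in the library labelled dyW3. What this level consists of was not tested.

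**Figure D3:**
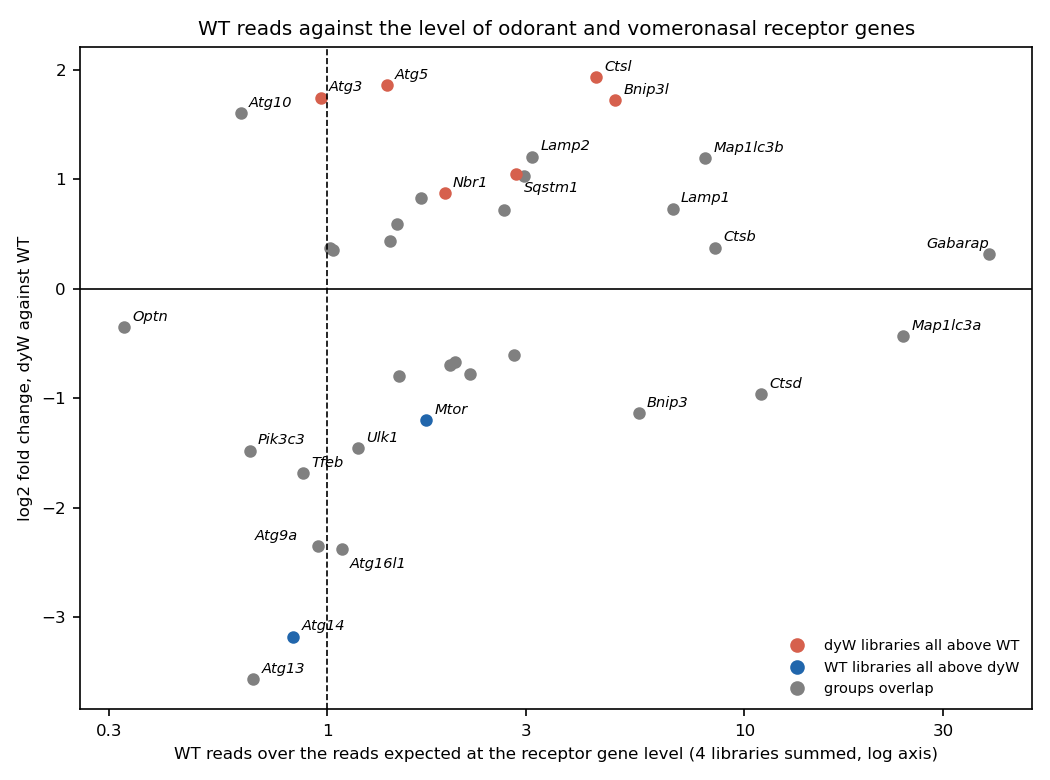
Log2 fold change of each gene (y axis) against its WT reads over the reads expected for a receptor gene (odorant or vomeronasal) of the same exon length (x axis, log scale, 4 WT libraries summed; dashed line, equal to that level); colours show whether the libraries of the groups overlap. *Atg13*, *Atg14* and *Atg9a* lie below and to the left, at or under the receptor level, *Atg10* and *Atg3* lie above 0 at 0.619 and 0.963 of it, *Ctsl* and *Bnip3l* above 0 at 4.40 and 4.91 times it, and *Bnip3* and *Ctsd* below 0 at 5.57 and 10.98 times it.

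In a ratio of 2 genes within a library the size factor enters only through the pseudocount, which matters for low genes. Of 9 ratios between paired members, none passed adjustment (exact two-sided permutation tests, adjusted *P*-values of at least 0.514). *Bnip3* over *Bnip3l* was the ratio whose groups did not overlap, at 0.28, −2.03, 0.33 and −1.61 on the log2 scale in WT and −4.35, −4.21 and −2.29 in dyW. The difference was −2.86 (exact permutation *P*-value 0.0571, adjusted 0.514), with every library labelled dyW below every WT library. The ratio of *Ctsl* to *Ctsd* was −1.89, 1.28, −0.10 and −0.46 in WT and 1.38, 5.35 and 1.06 in dyW, where the library labelled dyW3 was below WT2 (difference 2.89, 1.51 without dyW2). For *Ulk1* over *Ulk2* the 4 WT libraries lay between −0.95 and −0.30, and the libraries labelled dyW were at 1.76, −4.05 and −6.72 (difference −2.28, −2.48 with a pseudocount of 0.1, −1.43 with 10, −4.67 without dyW1 and −0.42 without the library labelled dyW3). *Map1lc3a* over *Map1lc3b* averaged −0.87 in the 4 WT libraries (SD 1.06) and −2.49 in the 3 libraries labelled dyW (SD 1.34) (exact permutation *P*-value 0.171). The remaining ratios, of *Gabarapl1* and *Gabarapl2* to *Gabarap*, *Lamp1* to *Lamp2*, *Ctsb* to *Ctsd* and *Sqstm1* to *Nbr1*, overlapped between the groups.

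**Figure D4:**
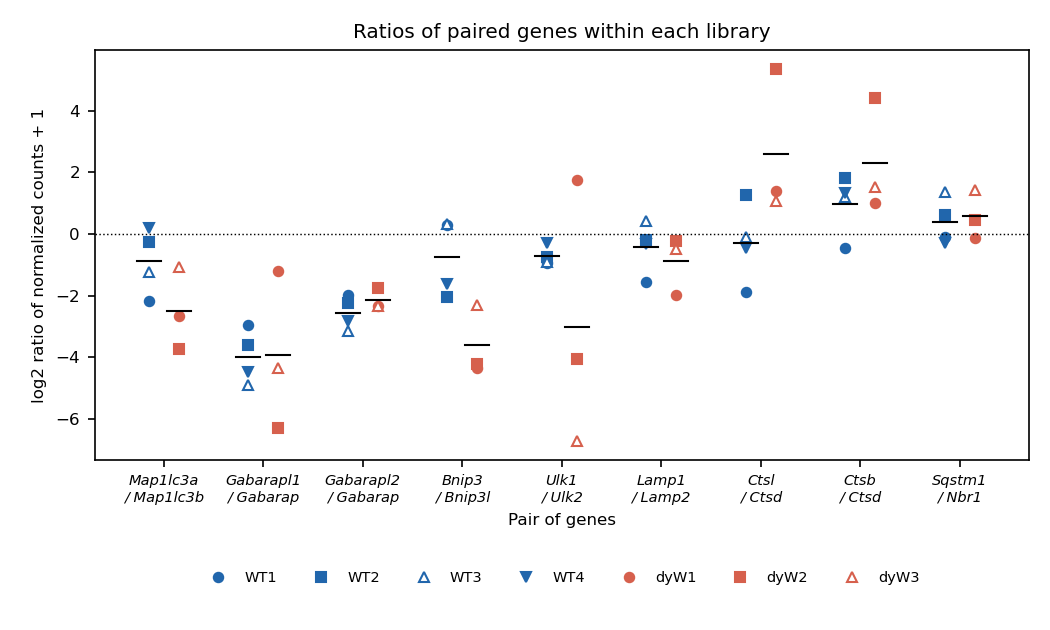
Log2 ratio of normalized counts + 1 (y axis) of 9 pairs of genes (x axis) in each library, WT in blue and libraries labelled dyW in red, with replicate 3 as open triangles (red, the library labelled dyW3) and a bar at the mean of each group. *Bnip3* over *Bnip3l* separates the groups, at −2.03 to 0.33 in WT and −4.35 to −2.29 in dyW, and *Ulk1* over *Ulk2* spreads from −6.72 to 1.76 in dyW.

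Other genes of the pathway, 116 in 9 lists, were tested and counted by the same rules. At an adjusted *P*-value under 0.01, 3 were lower and 0 higher, where all genes tested gave 18.7% and 0.0659%. With 1 library left out, the number lower at 0.01 ranged from 0 to 6, and that of all genes from 0 to 6698. At 0.05, 8 were lower and 6 higher, where all genes tested gave 29.6% lower and 1% higher and those with a mean of 50 to 1000 gave 5% and 4.01%. Subunits of the V-ATPase, the proton pump that acidifies the lysosome, were higher in 3 of 16 cases and lower in 0 at 0.05. All genes gave 1% higher and 29.6% lower, and those with a mean of 50 to 1000 gave 4.01% and 5%. *Atp6v1a*, the catalytic subunit of the pump, was at 101, 53.9, 94.4 and 59.8 normalized counts in WT and 221, 259 and 339.9 in dyW (log2 fold change 1.84, SE 0.53, adjusted *P*-value 0.0279). *Atp6v1d* (1.91, SE 0.58) and *Atp6ap2* (1.90, SE 0.54) were likewise above WT in every library labelled dyW. Of 25 lysosomal hydrolases, 2 were higher, the protease *Ctsc* (2.32, SE 0.64) and the glycosidase *Gla* (2.31, SE 0.76), and 2 were lower, *Glb1* (−3.57, SE 0.82) and *Neu1* (−3.51, SE 1.03), both glycosidases (over all genes, 1% higher and 29.6% lower). Among 10 tested receptors and mitophagy genes, *Tax1bp1* was higher, at 69.3 to 135 in WT and 311 to 493 in dyW, and *Calcoco1* was lower, at 65.6 to 198 and 21.5 to 24.4.

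The lower genes included 2 relatives of members. *Atg4d*, a protease that trims ATG8 proteins, was at 45.1 to 53.3 in WT and 0 to 0.253 in dyW, and *Atg9b*, a second form of ATG9, was at 16, 13.5, 8.21 and 62.9 in WT with no read in any library labelled dyW. Both are in the list of 6 conjugation and membrane genes, of which 2 were lower, where 29.6% of all genes were. *Mlst8*, an mTOR subunit, was lower among 20 genes of nutrient signalling and transcription factors, at 10.7 to 32.4 and 0 to 0.877. Of 13 fusion genes 1 was lower (*Vps18*, −2.32, SE 0.69), as was 1 of 13 genes of the lysosomal membrane and storage disease (*Cln3*, −2.41, SE 0.74). None of 11 other initiation and nucleation genes passed, nor did the 2 muscle atrophy ligases *Trim63* and *Fbxo32*. The counts at 0.05 were 17 lower and 3 higher without dyW1, where all genes gave 31.2% and 1.09%, and 14 lower and 6 higher without the library labelled dyW3, where all genes gave 41.4% and 1.47%. Without WT2 they were 4 lower and 1 higher (all genes 22.2% and 0.323%), as they were without WT4 (22.1% and 0.321%). V-ATPase subunits higher numbered 2 without dyW1, 2 without the library labelled dyW3 and 0 without WT2, WT4 or dyW2. With each library given an equal total, the 116 genes gave 3 lower and 17 higher (5 V-ATPase subunits), where all genes gave 17.9% lower and 4.56% higher. By voom 2 were lower and 10 higher (4 subunits), where all genes gave 26.6% and 1.86%. Quantile normalization, the replicate block and a filter at a mean of 50 left 0 lower and 0 higher, and in these fits few of all genes passed (0.318% lower and 0.0659% higher with quantile normalization, 0.00775% and 0% with the block, 0.0491% and 0% with the filter). With the receptor level subtracted, 0 of 110 were lower and 2 higher, with 0 V-ATPase subunits (all genes 0.585% and 2%). Without WT1, 5 were lower and 5 higher (all genes 27.4% and 0.782%), and without dyW2, 6 and 2 (24% and 0.872%).

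The direction of many members depends on how the libraries are scaled. The deposited size factors gave a median of 0.34 for the members and −1.99 for all genes tested; when every library was given the same total these were 1.44 and −0.98, by voom on recovered reads 1.13 and −1.70, with TMM 0.62 and −1.74, and with quantile normalization 0.13 and 0.06. Members above 0 numbered 19 with the deposited factors, 19 with TMM, 27 at the same total, 30 by voom, 20 with quantile normalization and 32 of the 35 tested with the receptor level subtracted, where the median of all genes was 0.96. With equal totals, 6 members were higher at an adjusted *P*-value under 0.05 and 0 were lower (*Bnip3l*, *Ctsl*, *Atg3*, *Atg5*, *Wipi1* and *Sqstm1*), where 4.56% of all genes were higher. By voom 3 were higher (*Ctsl*, *Bnip3l* and *Map1lc3b*), where the background was 1.86%. In the same 2 fits 17.9% and 26.6% of all genes were lower. With the receptor level subtracted, *Atg3* was higher, where 2% of all genes were higher and 0.585% lower. Without dyW1, 3 members were lower (*Atg13*, *Atg14* and *Ulk1*) and 1 was higher (*Atg10*), where the background was 31.2% and 1.09%. Without WT3, *Bnip3l* and *Ctsl* were higher and none was lower, where the background was 1.06% and 28.9%. Over the alternatives run, 14 members were above 0 in each that tested them, among them the 6 above WT in every library labelled dyW, 1 was below 0 in each (*Atg14*, −5.36 to −0.33), and 21 took either sign. For those 6 and *Atg14*, whose groups do not overlap, a left-out library, pseudocount, filter or block could not turn the sign. Only the other scalings, voom and the receptor subtraction could. The 36 genes together took 0.117%, 0.0784%, 0.113% and 0.0430% of the reads in WT1 to WT4 and 0.354%, 0.214% and 0.278% in the libraries labelled dyW. Each of the latter was above each WT share, and in the same libraries the 10 most abundant genes took 43.3% to 77.3% in WT and 16.4% to 37.6% in dyW, and the part of those few genes in the shares was not tested.

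**Figure D5:**
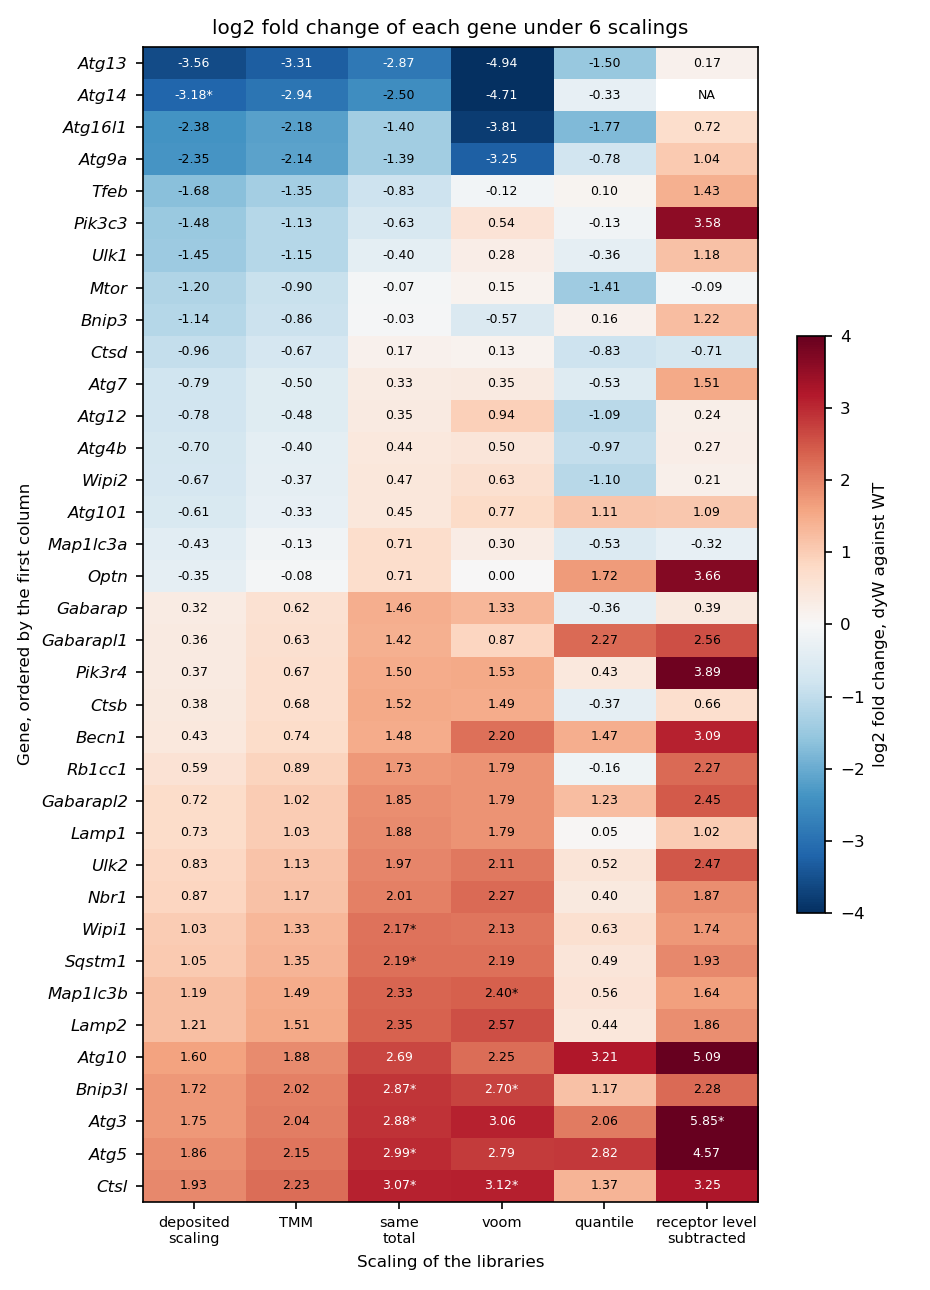
Log2 fold change of dyW against WT (colour, limited to −4 to 4, and printed value) of each gene (rows, ordered by the first column) under 6 scalings of the libraries (columns); an asterisk marks an adjusted *P*-value under 0.05 with an absolute log2 fold change over 1.5, and NA a gene below the filter. *Atg14* is the marked gene under the deposited scaling, 6 genes are marked at the same total and 3 by voom.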

How the data were processed

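Fibers of 4 fetuses labelled WT and 3 labelled dyW/dyW were sequenced by SMART-seq2, in which full-length cDNA is amplified without molecular identifiers. Per the methods, the authors used Cutadapt for trimming, RNA STAR for alignment (GRCm39) and FeatureCounts to count reads that mapped uniquely, and deposited normalized counts, which are counts divided by 1 size factor per library. They also deposited their own DESeq2 comparison (fold changes and *P*-values), which was not used. Tool versions, annotation release and strand setting are not given in the sources used here. The deposited values are written with decimal commas, and 100% of them were whole multiples (within 0.1) of the value of 1 read in each library, from which reads were recovered.

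The test was limma (version 3.58.1, R 4.3.3; lmFit and a trended eBayes) on log2(normalized count + 1), for the 25791 of 31531 genes whose mean reached 5, and *P*-values were adjusted by Benjamini-Hochberg over all genes tested. On this scale, changes of low genes appear too small. Called genes had an absolute log2 fold change above 1.5 and an adjusted *P*-value below 0.01, as in the study, and 0.05 was the second level. For single genes and ratios, an exact two-sided permutation test over libraries was used, whose smallest *P*-value is 0.0571. Nothing states whether fetuses came from separate litters, so *P*-values measure the spread between these libraries. Gene coordinates and exon lengths are from GENCODE M39 on GRCm39, and 24 of the 36 members share exon bases with another annotated gene, 3 of them with one on the same strand, which makes their counts uncertain. Tables were made in Python 3.11.15 with pandas 2.3.3, scipy 1.17.1 and numpy 2.4.6, and figures with matplotlib 3.10.9. The fit was run on simulated data with large changes in abundant genes only, which does not cover low genes such as *Atg14*.

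The members and lists were chosen with earlier results of these data known. Values in every library are given for members past the second level, members whose groups do not overlap, the 4 with the highest and the 2 with the lowest mean, members of the paired ratios, and *Atg5*, *Atg7*, *Map1lc3a* and *Map1lc3b*. The study measured *Atg5* and *Atg7* as RNA, and LC3 as protein, in the C2C12 myoblast line and not in fibers. In its *Lama2*-knockout cells it reported lower LC3-II protein, and lower *Atg5* and *Atg7* during differentiation. Of the other pathway genes, those past the second level are named. The markers *Oscar* and *Hbb-y* were not matched by symbol. Alternatives were other pseudocounts, filters, scalings and a lower fold threshold, voom, a block for replicate number and each library left out; subtraction of the receptor level and leaving out WT1 and the library labelled dyW3 together were added after seeing the data.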

Additional observations from a re-analysis of the deposited data

Results flagged for a closer look

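In 4 of 36 genes, 1 of the 4 WT libraries lay apart from the other 3, by a gap that exceeds the 95% critical value of Dixon's test; chance gives about 1.8 of 36. *Map1lc3b* was at 626 normalized counts in WT3 (gap 0.907 of the range), *Gabarap* at 888 in WT3 (0.935) and *Bnip3* at 277 in WT3 (0.856). These 3 share a library, WT3, whose summed level of myofiber markers, 68202, was also the highest of the 7 libraries. *Atg3* was at 21.3 normalized counts in WT1, below the other WT libraries (gap 0.834 of the range), which is 4 reads in the shallowest library. Groups of 3 were not examined in this way.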

How the results depend on the processing

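Depth limits what can be said of low genes: a count of 0 in a WT library allows 6.15 to 16 normalized counts and in a library labelled dyW 0.292 to 1.47. The number of members past an adjusted *P*-value of 0.05, 1 as reported, was 0 with a pseudocount of 10, a filter at a mean of 50, quantile normalization, TMM, the replicate block, or without WT1 and the library labelled dyW3 together, 3 by voom and 6 at the same total. The share of all genes past 0.05, lower and higher, was 12% and 0.71% with a pseudocount of 10, 27.3% and 1.52% with TMM and 44.5% and 1.2% without both libraries, but 0.0491% and 0% with the filter at 50, 0.318% and 0.0659% with quantile normalization and 0.00775% and 0% with the block, where a count of 0 says little about the members. With 1 library left out it ranged from 0 to 4, being 0 without WT1, WT2, WT4 or dyW2, 2 without WT3 (*Bnip3l* and *Ctsl*, both higher), 4 without dyW1 (*Atg13*, *Atg14* and *Ulk1* lower, *Atg10* higher) and 1 without the library labelled dyW3 (*Atg3*, higher, in place of *Atg14*). Members called lower at 0.01 ranged from 0 to 1 with 1 library left out (*Atg13* without dyW1, adjusted *P*-value 0.00933, where 2090 of 26945 genes tested were lower). The median of the members moved from 0.34 to 1.44 at the same total and 1.64 with the receptor level subtracted, where that of all genes was 0.96; it was −0.04 with the replicate block and ranged from −0.08 (without dyW1) to 0.33 with 1 library left out. Of all 36 members, 21 took either sign among the alternatives. Among the 11 followed singly (those whose groups do not overlap, *Atg7*, *Map1lc3a* and *Map1lc3b*), reversed signs were those of *Atg7* (0.33 at the same total, 0.35 by voom, 1.51 with the receptor level subtracted), *Map1lc3a* (0.71 at the same total, 0.30 by voom, 0.021 without WT3, range with 1 library left out −0.99 to 0.021) and *Mtor* (0.15 by voom), and of the ratios *Gabarapl1* to *Gabarap* (−0.27 without WT3, −0.12 without WT4, −1.33 without dyW1, range −1.33 to 1.22), *Sqstm1* to *Nbr1* (−0.05 without WT4, −0.25 without the library labelled dyW3, range −0.25 to 0.54) and *Lamp1* to *Lamp2* (0.066 without dyW1, range −0.86 to 0.066). The causes were not tested. Over all genes, the count called lower at 0.01 was 4830 as reported and 0 to 6698 with 1 library left out. Libraries share replicate numbers 1 to 3, but their deviations correlated at 0.147, −0.0494 and −0.0880, which shows no steady pairing by number, and WT3 correlated best with dyW2. Depth and make-up also enter these values, so they cannot tell whether libraries of the same number shared a litter or preparation. The replicate block left 0 members past 0.05 and 1 gene called lower overall. Count models (edgeR and DESeq2) on the recovered reads were planned and not run.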
